A study of Mus musculus with 20 samples.

Results

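8 genes that encode or regulate the CD4 and CD8 coreceptors were followed among the 25246 genes of the count tables: *Cd4*, *Cd8a*, *Cd8b1*, *Zbtb7b*, *Runx1*, *Runx2*, *Runx3* and *Cbfb*. They were chosen by name, although earlier results of these data were known by then. All 8 had transcripts, and *Cd4* and *Runx2* were listed in 19 of the 20 tables and the others in all 20 (a gene not listed was counted as 0). The cells were single precursors of thymic intraepithelial lymphocytes (IELPs), which are TCRαβ+ thymocytes sorted for the absence of CD4, CD8αβ and NK1.1 on the surface (the text deposited with the series says NK1.1+, and the paper, which gives NK1.1-, is followed here). They were sorted by CD122, the β chain of the interleukin-2 and interleukin-15 receptors, and by ZsGreen, which a *Tbx21* transgene makes where the transcription factor T-bet is expressed (TBGR mice). CEL-Seq2, an assay that reads the 3′ end of each transcript and tags each molecule with a UMI, gave 20 libraries of 96 cells, of which 1413 of 1920 cells had at least 2000 transcripts and a named population.

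Cells of 3 genotypes were sorted, all with the ZsGreen reporter, in lines kept on a C57BL/6 background. The design text speaks of 1 mouse at a time, the description of the sort of the 2 C-myc genotypes speaks of mice in the plural, and no label ties a library to an animal, so each genotype is treated here as 1 mouse. The TBGR mouse, labelled wild type, was 4 weeks old and gave 2 libraries of each of 4 populations: cells without CD122 (CD122- cells, all T-bet-), CD122+T-bet- cells, and CD122+ cells with intermediate (T-bet int) or high ZsGreen (T-bet high). The TBGR C-myc fl/fl mouse, of 2 weeks, has *Myc* flanked by loxP sites and no Cre, and each of its 8 libraries held 2 populations: both populations without T-bet in 4 libraries, and those with intermediate and high T-bet in the other 4. The TBGR C-myc D/D Cd4 mouse, also of 2 weeks, deletes *Myc* through a Cre transgene driven by *Cd4* regulatory sequences and gave 2 libraries of each population without T-bet. Before the sort, cells had been depleted with antibodies to CD4 and CD8β, so the protein of both coreceptors was selected against while CD8α alone was not. Libraries that no label ties to separate animals may be technical repeats, so no p-value is given for any comparison, and genotype, mouse, library and, against the TBGR mouse, age cannot be told apart. Each population of the TBGR and D/D Cd4 mice was in libraries of its own, so population and library cannot be told apart there. The same holds between T-bet int and CD122+T-bet- cells of the fl/fl mouse.

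CD4 and CD8 bind MHC class II and class I and bring the kinase Lck to the T cell receptor. CD8 is made as a heterodimer of the chains encoded by *Cd8a* and *Cd8b1* in conventional CD8 T cells, and as a homodimer of CD8α in many intestinal intraepithelial lymphocytes. *Zbtb7b* encodes ThPOK, the factor that commits thymocytes to the CD4 lineage and keeps *Runx3* low. *Runx3* encodes a Runx factor that silences *Cd4* and activates the *Cd8* locus, *Runx1* encodes a related factor that represses *Cd4* in immature thymocytes, *Runx2* encodes the third member of the family, and *Cbfb* encodes the partner that lets all Runx factors bind DNA.

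The start regions of 3 members are shown because Runx factors bind a known short motif and because these genes differed between the sorted populations: *Runx3* itself, *Zbtb7b*, and the coreceptor gene *Cd8a*. Sequences are from RefSeq, build GRCm38.p6, and are the 250 bases that end just before a transcription start, written 5′ to 3′ on the strand of the gene. Capitals mark the motif TGTGGT, or ACCACA where it lies on the other strand. The search also covered TGCGGT, on both strands, and neighbouring matches can share at most an end base.
Runx3, first start, chr4:135120395-135120644, + strand: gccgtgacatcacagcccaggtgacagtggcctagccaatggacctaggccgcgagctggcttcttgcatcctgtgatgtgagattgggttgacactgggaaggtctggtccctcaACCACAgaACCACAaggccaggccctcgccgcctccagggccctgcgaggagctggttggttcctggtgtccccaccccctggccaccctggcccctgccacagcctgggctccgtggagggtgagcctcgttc
Zbtb7b, second start, chr3:89387672-89387921, - strand: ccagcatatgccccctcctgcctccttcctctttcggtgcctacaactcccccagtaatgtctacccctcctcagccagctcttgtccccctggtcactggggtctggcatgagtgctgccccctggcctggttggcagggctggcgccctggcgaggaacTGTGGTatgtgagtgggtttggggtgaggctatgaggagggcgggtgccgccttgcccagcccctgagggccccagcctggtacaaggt
Cd8a, chr6:71373177-71373426, + strand: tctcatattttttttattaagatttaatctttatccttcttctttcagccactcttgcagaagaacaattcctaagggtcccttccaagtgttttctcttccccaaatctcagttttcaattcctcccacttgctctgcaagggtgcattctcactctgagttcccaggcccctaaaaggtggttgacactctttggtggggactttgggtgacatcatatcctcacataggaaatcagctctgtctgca
6 of the 8 members had an entry, with 9 starts in all, and *Cd4* and *Cd8b1* had none. A motif was found before 3 of the 9 starts, against 18.6% of all 32851 promoters in the table. The first *Runx3* start had TGTGGT at bases -134 and -126, counted back from the start, the second *Zbtb7b* start had it at base -89, and *Runx2*, on chromosome 17, had it at base -80. *Cd8a* had no match in this window. TGTGGT alone was found in 14.0% of all promoters and TGCGGT in 5.10%. Counts at the 3′ end do not tell which start a transcript came from, so neither *Runx3* nor *Zbtb7b* can be split by start here.

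Passing cells numbered 22 to 94 per library and population, with 94268 to 775264 transcripts in each, and the median cell had 3298 to 7809.5 transcripts. The libraries share 1 set of barcodes, and every barcode of the set marked a cell in at least 2 libraries. Levels are given as transcripts per 1000000 transcripts of all genes (CPM), summed over the cells of a library and population, with exact 95% Poisson intervals for sums over libraries, which cover counting error only. In 1920 barcodes that had received no cell, 51080 transcripts were found, among them 5 of *Cd4*, 7 of *Cd8a*, 4 of *Cd8b1*, 3 of *Zbtb7b*, 5 of *Runx3*, 1 of *Runx1*, 10 of *Cbfb* and none of *Runx2*. For *Cd4* this is 2.60 transcripts per 1000 empty barcodes against 596 per 1000 passing cells, and for *Cd8b1* 2.08 against 124. The αβ T cell markers *Cd3d*, *Cd3e*, *Cd3g*, *Trbc1*, *Trac* and *Thy1* were all found in every population, at a sum of 2344 to 7302 CPM per library. Sums over marker lists of other cells were 24.4 to 503 CPM per library for B cells, 21.2 to 395 CPM for myeloid or dendritic cells, 0 to 148 CPM for regulatory T cells and 173 to 1513 CPM for γδ T cells, whose defining gene *Trdc* had 87.7, 65.4, 9.28 and 0 CPM along the 4 TBGR populations, 139, 9.24, 3.53 and 4.29 CPM in the fl/fl mouse and 346 and 212 CPM in the D/D Cd4 mouse.

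The sort labels were checked against transcripts. *Il2rb*, which encodes CD122, had 0 to 19.4 CPM in the CD122- libraries and 146 to 554 CPM in all others. *Tbx21*, which encodes T-bet, had 0 to 13.4 CPM in cells sorted as T-bet-, 12.4 to 55.3 CPM in T-bet int and 25.0 to 214 CPM in T-bet high libraries, with overlap at both borders over the 3 mice. *Myc*, the deleted gene, had 16.7 and 30.0 CPM in CD122- and 44.5 and 9.96 CPM in CD122+T-bet- libraries of the D/D Cd4 mouse. The fl/fl libraries had 63.0, 14.0, 62.3 and 24.4 CPM and 73.8, 125, 135 and 10.6 CPM, and the TBGR libraries 12.4 and 14.1 CPM and 46.4 and 62.0 CPM. The D/D Cd4 and fl/fl libraries overlap in both populations, and tags at the 3′ end may lie outside the deleted part.

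1 library stood apart from its pair. The second T-bet high library of the TBGR mouse had 55 of 96 cells passing against 92 in the first, and the sum of 8 markers of CD4+CD8+ double positive thymocytes was 343 CPM in it against 8.49 in the first. The levels of the members in T-bet high cells of that mouse are therefore given by library, while ratios, shares of cells and list genes there are sums over both libraries unless a library is named. Double positive markers were highest in the CD122- libraries of the TBGR C-myc D/D Cd4 mouse (990 and 1119 CPM), and their sum in the CD122- libraries was 188 and 314 CPM for TBGR and 172 to 732 CPM for TBGR C-myc fl/fl. Double positive thymocytes express both coreceptors, so levels are also given for cells with and without a transcript of these markers other than *Cd24a*, a split chosen after seeing the data.

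A difference between populations was called when it was at least 2-fold and the libraries did not overlap, among genes with at least 100 transcripts in the 2 groups together. The sets of members that passed this minimum differ between comparisons, and a low gene can pass only through the group where it is high, so the counts below are descriptions. Libraries without overlap are also named below for members that were not called. With few libraries this can arise by chance, and its share over all genes was not counted. For CD122+T-bet- over CD122- cells of the TBGR mouse, 5 members could be compared. 1 of them, *Runx3*, was higher, against 9.07% of all 4057 genes compared, and 2, *Cd4* and *Zbtb7b*, were lower, against 2.37%. For T-bet int over CD122+T-bet- cells, *Cd8a* was higher and *Cd4* was lower among 5 members, against 2.07% and 2.7% of 4637 genes. For T-bet high over T-bet int cells, no member was higher and *Cd8a* was lower among 4, against 5.65% and 9.05% of 3524 genes. These 3 comparisons share the CD122+T-bet- or the T-bet int libraries. Some calls were lost with 1 library left out, when the minimum of 100 transcripts was applied again to the libraries that remained. Without the first CD122- library only *Cd4* was called in the first comparison, and without the second CD122- library *Zbtb7b* was not called. Without either CD122+T-bet- library only *Cd8a* and without the second T-bet int library only *Cd4* was called in the second. Without either T-bet int library none was called in the last. A member could lose its call by falling below that minimum or below 2-fold. Over all comparisons, the 352 ratios of members with 1 library left out differed from the main ratio by no more than the spread between libraries. That spread is computed from the same libraries, so this outcome was largely fixed in advance and says little about stability.

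The TBGR C-myc fl/fl mouse had 112 to 122 passing cells per population, against 147 to 186 for TBGR, and fewer members passed the minimum. *Runx3* and *Cbfb* were higher in CD122+T-bet- than in CD122- cells and none was lower, among 3 members, against 5.93% and 0.678% of 1771 genes. Of 2 members compared, none was called between T-bet int and CD122+T-bet- cells, against 0.317% higher and 0.0907% lower of 2205 genes, and none of 2 between T-bet high and T-bet int cells, against 1.87% and 1.78% of 2027 genes. For CD122+T-bet- over CD122- cells of the TBGR C-myc D/D Cd4 mouse, *Runx3* was higher and none was lower among 3 members, against 12.6% and 6.74% of 2106 genes. Without the second CD122+T-bet- library of that mouse no member was called. Without the first library of T-bet- cells of the fl/fl mouse *Cbfb* alone was called there. The minimum was again applied to the libraries that remained. Between the TBGR C-myc D/D Cd4 and the TBGR C-myc fl/fl mouse, none of 3 members was called in CD122- cells, where 12.4% of 1793 genes were higher and 0.39% lower in the D/D Cd4 mouse. None of 3 was called in CD122+T-bet- cells, where 12.7% of 2113 genes were higher and 8.66% lower. The median log2 ratio of all genes compared was 0.28, 0.05 and -0.13 in the 3 TBGR comparisons, 0.55, 0.04 and -0.18 in the 3 TBGR C-myc fl/fl comparisons and 0.05 in the TBGR C-myc D/D Cd4 mouse, and it was 0.45 and 0.06 between these genotypes in CD122- and CD122+T-bet- cells.

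**Figure D1:**
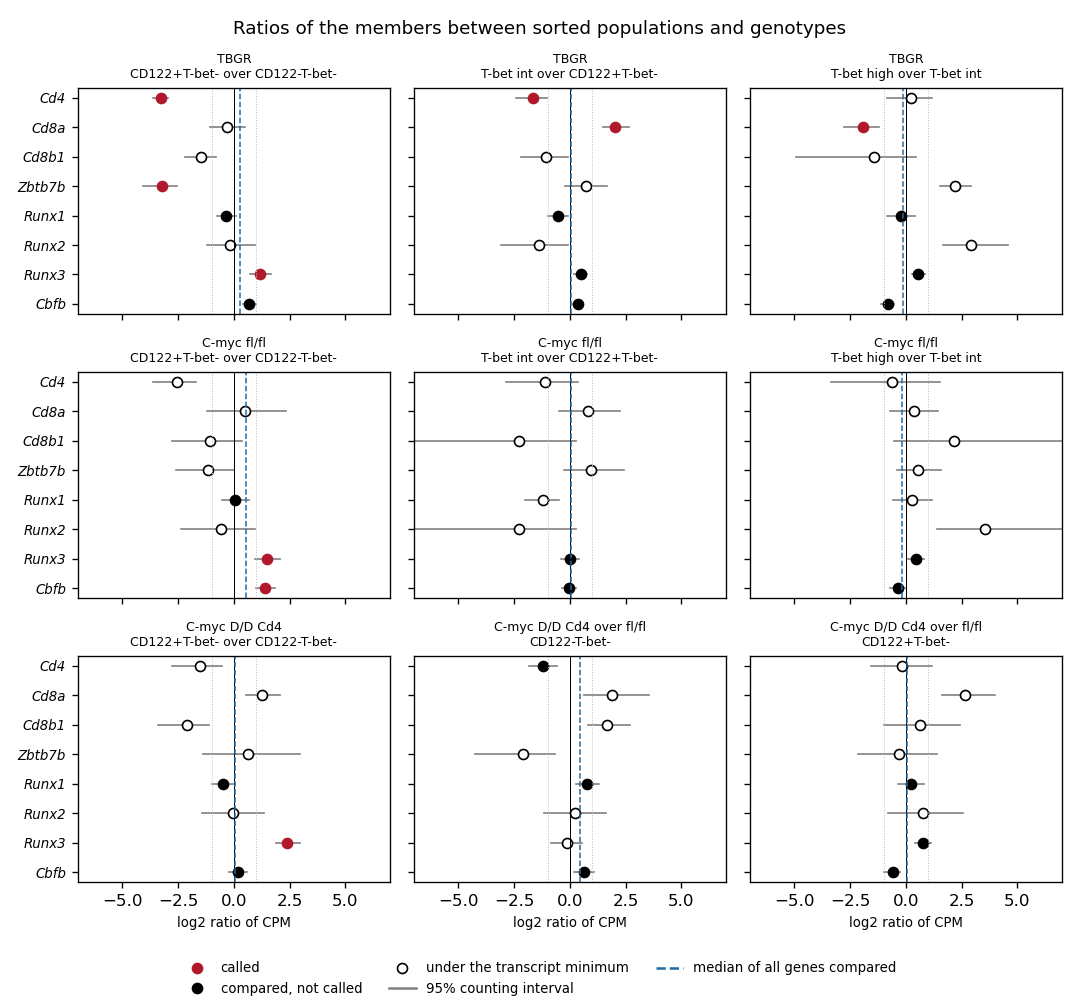
Each panel plots the log2 ratio of CPM (x axis) of the 8 members (y axis) for 1 comparison, with 95% counting intervals that are cut at the panel's edge, dotted lines at 2-fold and a dashed line at the median of all genes compared. Red points were called, black points were compared and not called, and open points had fewer than 100 transcripts. *Runx3* is red in the CD122+T-bet- over CD122- panel of all 3 genotypes, and *Cd4* lies left of 0 in all 3.

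*Cd4* transcripts were abundant in CD122- cells of the TBGR mouse although these cells had been sorted and depleted for lack of CD4 protein. The 2 libraries had 680.1 and 493 CPM in this population, 63.2 and 56.2 CPM in CD122+T-bet- cells, 18.2 and 19.0 CPM in T-bet int cells and 27.6 and 8.57 CPM in T-bet high cells. The CD122- libraries were far above all others, and the 2 populations with T-bet overlapped. The log2 ratio was -3.28 (interval -3.63 to -2.96) from CD122- to CD122+T-bet- cells (574 and 88 transcripts), and -1.67 (-2.41 to -1.02) from there to T-bet int cells. At least 1 *Cd4* transcript was found in 164 of 174 CD122- cells (94.3%, exact binomial interval 89.7 to 97.2%), in 50 of 186 CD122+T-bet- cells (26.9%), in 15 of 171 T-bet int cells (8.77%) and in 15 of 147 T-bet high cells (10.2%). With every cell thinned to 2000 transcripts the shares were 68.3%, 11%, 3.4% and 4.1%, in the same order. The median CD122- cell had 3 *Cd4* transcripts and 136 of 174 had at least 2, whereas no T-bet high cell had more than 1.

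Lower *Cd4* levels were found in the CD122- cells of both younger mice. The 4 TBGR C-myc fl/fl libraries had 48.5, 158, 120.1 and 42.7 CPM in CD122- cells and 27.7, 17.8, 9.02 and 0 CPM in CD122+T-bet- cells. All 4 values of the first population were above all 4 of the second, and within each library, which held both, *Cd4* was lower in the CD122+ cells. The log2 ratio was -2.55 (-3.62 to -1.72), from 78 and 12 transcripts, which together stay below the minimum of 100. *Cd4* was found in 41 of 120 CD122- cells (34.2%) and 12 of 122 CD122+T-bet- cells (9.84%), then in 5 of 116 T-bet int and 3 of 112 T-bet high cells. For the D/D Cd4 mouse, CD122- libraries had 56.9 and 32.2 CPM and CD122+T-bet- cells 22.2 and 7.47 CPM, with *Cd4* in 18 of 128 and 4 of 137 cells. In the latter, 1 cell held 6 of the 10 transcripts. Between these genotypes the CD122- libraries overlapped (log2 ratio -1.19, interval -1.85 to -0.59, D/D Cd4 over fl/fl), while the median over all genes compared was 0.45.

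**Figure D2:**
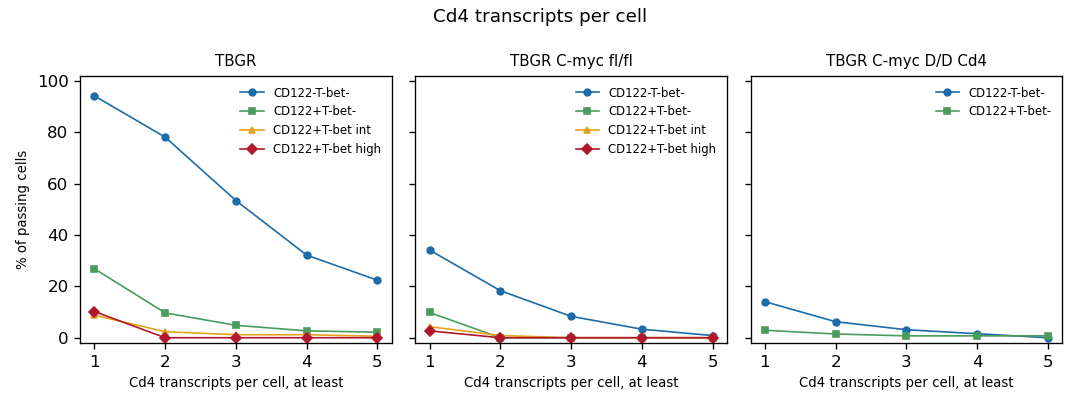
The share of passing cells (y axis, percent) with at least 1 to 5 *Cd4* transcripts (x axis), with 1 panel per genotype and 1 line per sorted population. The CD122- line starts at 94.3% for TBGR, 34.2% for TBGR C-myc fl/fl and 14.1% for TBGR C-myc D/D Cd4, and lies above the other populations at 1 transcript in each.

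*Cd4* was not higher in cells that carried double positive markers. Of the TBGR CD122- cells, 35 of 174 had a transcript of a double positive marker other than *Cd24a*, and the *Cd4* level was 505 CPM (418 to 605) in these and 610 CPM (556 to 669) in the 139 others. The corresponding levels for TBGR C-myc fl/fl were 26.7 CPM (11.5 to 52.7) in 33 cells with and 137 CPM (107 to 173) in 87 cells without a marker. For TBGR C-myc D/D Cd4 they were 21.8 CPM (10.9 to 39.1) in 70 cells with and 80.2 CPM (49.7 to 123) in 58 cells without. In both C-myc genotypes the cells without the markers thus had the higher *Cd4* level, with intervals that do not overlap. Deeper cells hold more of any gene, so the split by markers also depends on depth, and its part in these levels was not tested.

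*Cd8a*, the gene of the CD8α chain, was highest in T-bet int cells of the TBGR mouse. The 2 libraries had 66.7 and 120.2 CPM there, against 23.2 and 21.6 CPM in CD122+T-bet- cells, 18.6 and 36.2 CPM in CD122- cells and 31.8 and 8.57 CPM in T-bet high cells. Both T-bet int libraries exceeded all 6 others. The log2 ratio was 2.03 (1.48 to 2.65) from CD122+T-bet- to T-bet int cells (33 and 120 transcripts), where *Cd8a* passed the minimum only through the T-bet int cells. From T-bet int to T-bet high cells it was -1.91 (-2.77 to -1.21), with -3.12 without the first and -1.50 without the second T-bet high library. *Cd8a* was found in 50 of 171 T-bet int cells (29.2%), against 9.68% of CD122+T-bet- and 6.80% of T-bet high cells, and thinning to 2000 transcripts gave 15.0%, 4.01% and 3.63%. In T-bet high cells 8 of the 17 transcripts came from 1 cell. The fall from T-bet int to T-bet high cells was not seen in the fl/fl mouse. There *Cd8a* had 18.8 CPM in T-bet int (12.9 to 31.1 over libraries) and 24.3 CPM in T-bet high cells (0 to 55.0), from 16 and 17 transcripts. Within its 4 libraries that held both, *Cd8a* was higher in T-bet high cells in 2 and lower in 2.

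*Cd8b1*, which encodes the CD8β chain, was highest in CD122- cells of the TBGR mouse, at 43.4 and 66.4 CPM, and lower in CD122+T-bet- (25.8 and 13.0 CPM), T-bet int (6.06 and 12.6 CPM) and T-bet high cells (2.12 and 4.28 CPM). Neighbouring populations in this order did not overlap between libraries, but each ratio rests on fewer than 100 transcripts. The share of all genes without overlap was not counted. The CD122+T-bet- over CD122- ratio was -1.47 on the log2 scale (-2.18 to -0.80), and that of T-bet int over CD122+T-bet- cells was -1.05 (-2.19 to -0.07).

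Over the cells of a population together, the balance of the CD8 chains was described as the *Cd8a* share of *Cd8a* plus *Cd8b1* transcripts. Capture at the 3′ end can differ between these genes, so the share is compared between populations and not read as a ratio of molecules. For TBGR it was 33.3% in CD122- cells (exact binomial interval 23.2 to 44.7%, 27 and 54 transcripts) and 53.2% in CD122+T-bet- cells (40.1 to 66.0%, 33 and 29). In T-bet int cells it was 90.9% (84.7 to 95.2%, 120 and 12) and in T-bet high cells 89.5% (66.9 to 98.7%, 17 and 2). The intervals of the T-bet int cells and of both T-bet- populations do not overlap, while the interval of T-bet high cells overlaps with that of T-bet int cells. These intervals cover counting error only and treat transcripts of 1 cell as independent, although 1 T-bet int cell held 11 *Cd8a* transcripts. In T-bet high cells the share was 66.7% without the first library and 93.8% without the second, and 81.8% without the cell with most transcripts of the pair. Empty barcodes had 7 *Cd8a* and 4 *Cd8b1* transcripts, a share of 63.6% (30.8 to 89.1%).

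The fl/fl populations had shares in the same order, from fewer transcripts. TBGR C-myc fl/fl cells had 30.0% (11.9 to 54.3%) in CD122-, 57.1% (28.9 to 82.3%) in CD122+T-bet-, 94.1% (71.3 to 99.9%) in T-bet int and 77.3% (54.6 to 92.2%) in T-bet high cells, from 6 and 14, 8 and 6, 16 and 1, and 17 and 5 transcripts. There, only the interval of CD122- cells is apart from those of the populations with T-bet. TBGR C-myc D/D Cd4 cells had 33.8% (22.6 to 46.6%) in CD122- and 84.7% (73.0 to 92.8%) in CD122+T-bet- cells, from 22 and 43 and from 50 and 9 transcripts. Without cells that had a double positive marker, the share of the CD122- cells was 50.0% in that mouse, 36.1% for TBGR and 20% for TBGR C-myc fl/fl, and that of the D/D Cd4 CD122+T-bet- cells was 83.9%.

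Cells with transcripts of both CD8 chains were few in every population. Of 174 TBGR CD122- cells, 9 had *Cd8a* alone, 24 had *Cd8b1* alone and 9 had both, where independence at the same shares would give 3.41 with both. Of 171 T-bet int cells, 46 had *Cd8a* alone, 5 had *Cd8b1* alone and 4 had both, with 2.63 under independence. Of 186 CD122+T-bet- cells the numbers were 14, 16 and 4, and of 147 T-bet high cells 10, 2 and 0. For TBGR C-myc D/D Cd4, *Cd8a* alone was found in 10 of 128 CD122- cells and 23 of 137 CD122+T-bet- cells, *Cd8b1* alone in 14 and 7, and both in 4 and 1. TBGR C-myc fl/fl cells with both were 2 of 120 in the CD122- population and 0 in the other 3. Deeper cells hold more of any gene, and with cells thinned to 2000 transcripts the TBGR CD122- value was 2.61 cells with both, with 0.796 under independence.

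**Figure D3:**
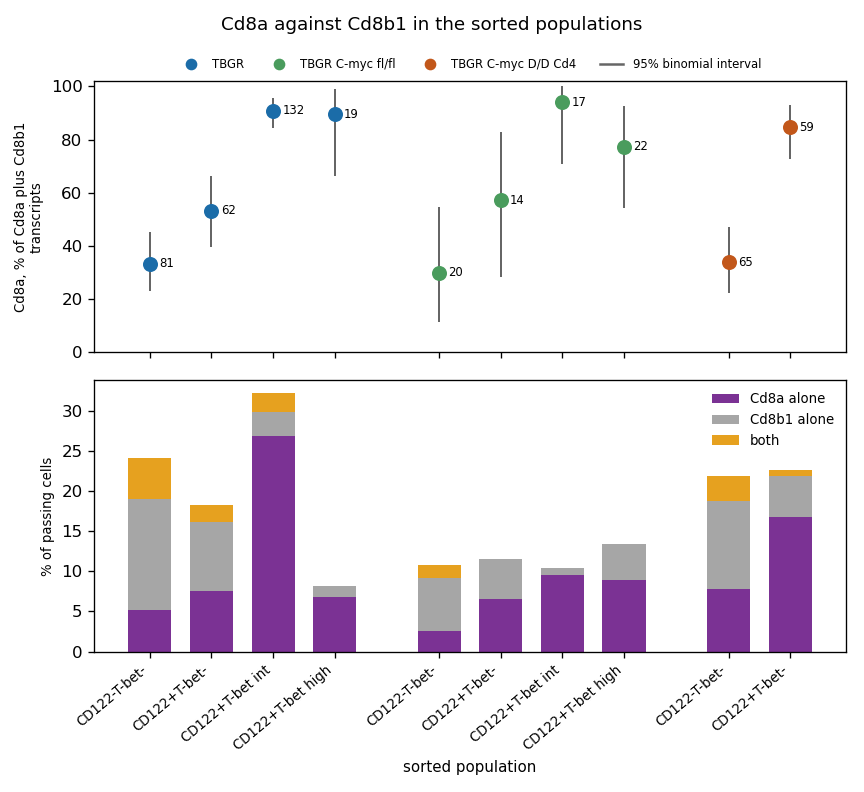
The upper panel plots the *Cd8a* share of *Cd8a* plus *Cd8b1* transcripts (y axis, percent) in each sorted population (x axis), with exact 95% binomial intervals and the number of transcripts beside each point. The lower panel stacks the percent of passing cells with *Cd8a* alone, *Cd8b1* alone or both, and the share of cells with *Cd8a* alone is highest for TBGR T-bet int cells.

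*Cd8a* was the coreceptor gene with the largest ratio between the 2 C-myc genotypes. In CD122+T-bet- cells the D/D Cd4 libraries had 69.9 and 69.7 CPM and the 4 fl/fl libraries 4.61, 22.3, 9.02 and 0 CPM, with no overlap and a log2 ratio of 2.65 (1.64 to 4.01) from 50 and 8 transcripts. In CD122- cells they had 36.8 and 23.6 CPM against 4.85, 14.0, 4.45 and 6.10 CPM, also without overlap (log2 ratio 1.87, interval 0.61 to 3.55). Neither ratio reached the minimum of 100 transcripts. Without cells that had a double positive marker, the ratios were 2.77 and 3.02, and without cells that had *Trdc*, a gene of γδ T cells whose use here was also chosen after seeing the data, they were 2.97 and 2.60. *Cd8b1* had 100.4 and 27.9 CPM in the D/D Cd4 and 14.5, 9.30, 17.8 and 30.5 CPM in the fl/fl CD122- libraries, which overlap. Of its 43 transcripts in D/D Cd4 CD122- cells, 29 came from the 70 cells with a double positive marker, at 57.6 CPM (38.6 to 82.7) against 53.5 CPM (29.2 to 89.8) in the other 58 cells. Cells with T-bet from the D/D Cd4 mouse were not analysed here.

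**Figure D4:**
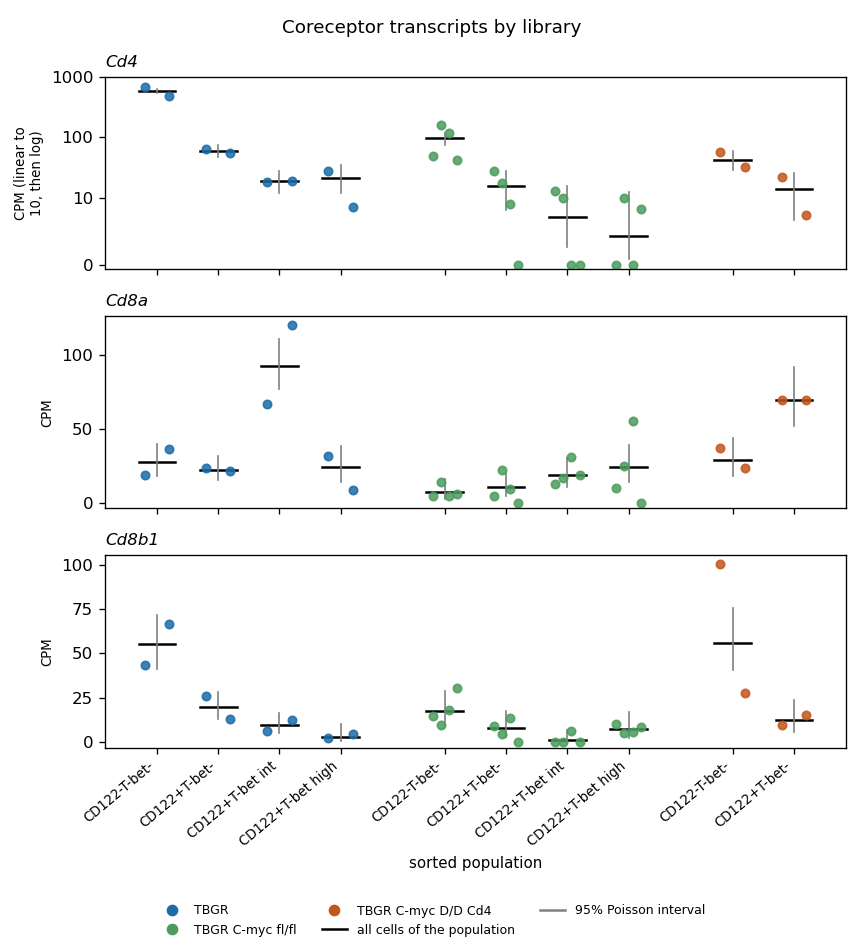
Levels of *Cd4*, *Cd8a* and *Cd8b1* (y axes, CPM, for *Cd4* linear to 10 and logarithmic above) in each sorted population (x axis) of the 3 genotypes. Points are libraries, black bars the sum over libraries and grey lines its 95% Poisson interval. The *Cd4* points of TBGR CD122- cells stand at 493 and 680.1 CPM and the *Cd8a* points of TBGR T-bet int cells at 66.7 and 120.2 CPM, each above the other TBGR points of its panel.

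*Zbtb7b*, which encodes ThPOK, was high at both ends of the TBGR series and low between them. Its libraries had 141 and 94.6 CPM in CD122- cells, 14.2 and 10.1 CPM in CD122+T-bet- cells, 13.6 and 26.9 CPM in T-bet int cells and 119 and 42.8 CPM in T-bet high cells. The CD122- and the T-bet high libraries overlap with each other, and all of them lie above the 4 libraries of the middle populations. The first step had a log2 ratio of -3.23 (-4.06 to -2.53), from 115 and 18 transcripts, so *Zbtb7b* passed the minimum only through the CD122- cells. The last step had a log2 ratio of 2.20 (1.54 to 2.93) from 26 and 66 transcripts, below the minimum, and 1.13 without the first and 2.55 without the second T-bet high library. *Zbtb7b* was found in 61 of 174 CD122- cells (35.1%), 6.99% of CD122+T-bet-, 10.5% of T-bet int and 34.0% of T-bet high cells, and thinning left 18.6%, 2.45%, 3.27% and 16.5%.

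In T-bet high cells *Klrb1c*, which encodes NK1.1, the antigen used to exclude NKT cells and NK cells, also had its highest level, 563 CPM against 39.5 CPM in T-bet int cells of the TBGR mouse. *Zbtb16*, which encodes the NKT factor PLZF, had 28.4 and 46.4 CPM. The sum of both NKT markers was 484 and 645 CPM in the T-bet high libraries, against 57.6 and 115 CPM in T-bet int cells, and their part in the *Zbtb7b* level was not tested. The 4 TBGR C-myc fl/fl libraries had 9.70, 41.9, 31.1 and 12.2 CPM in CD122-, 9.22, 17.8, 0 and 21.2 CPM in CD122+T-bet-, 17.2, 16.7, 43.5 and 12.7 CPM in T-bet int and 20.2, 40.1, 27.5 and 41.7 CPM in T-bet high cells, and all 4 populations overlapped. Within these libraries *Zbtb7b* was lower in CD122+T-bet- than in CD122- cells in 3 of 4 (log2 ratios -0.07, -1.14, -3.89 and 0.80) and higher in T-bet high than in T-bet int cells in 3 of 4 (0.23, 1.21, -0.62 and 1.54), from at most 9 transcripts in any library and population. TBGR C-myc D/D Cd4 libraries had 0 and 8.57 CPM in CD122- and 6.35 and 9.96 CPM in CD122+T-bet- cells. In CD122- cells both lie below the 4 fl/fl libraries (log2 ratio -2.11, interval -4.25 to -0.66, from 4 and 20 transcripts). *Klrb1c* was at 81.5 CPM in the T-bet high cells of the fl/fl mouse.

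*Runx3*, the Runx gene of the CD8 lineage, rose with CD122 in all 3 mice. TBGR libraries had 37.2 and 70.5 CPM in CD122-, 111 and 134 CPM in CD122+T-bet-, 179 and 163 CPM in T-bet int and 282 and 192.8 CPM in T-bet high cells. Neighbours did not overlap, for which no share over all genes was counted. The log2 ratios of the 3 steps were 1.16 (0.72 to 1.64), 0.49 (0.20 to 0.78) and 0.56 (0.27 to 0.85). The first is 0.88 above the median of all genes, which is less than 2-fold, and the last was 0.19 without the first and 0.72 without the second T-bet high library. Cells with a *Runx3* transcript made up 20.1%, 45.2%, 59.1% and 60.5% of the 4 populations, and 8.99%, 19.9%, 27.9% and 36.8% after thinning.

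The rise of *Runx3* with CD122 was also seen within libraries that held both populations. The 4 TBGR C-myc fl/fl libraries had 53.3, 69.8, 26.7 and 48.8 CPM in CD122- and 171, 125, 153 and 74.3 CPM in CD122+T-bet- cells, with the CD122+ cells higher in 4 of 4 libraries by log2 ratios of 1.63, 0.82, 2.43 and 0.62. Summed over libraries it was 1.49 (0.97 to 2.07), which is 0.95 above the median of all genes. T-bet int cells had 146, 194, 93.3 and 82.3 CPM and T-bet high cells 181, 200.5, 259 and 91.8 CPM, so that *Runx3* was higher in T-bet high cells in 4 of 4 libraries, although the values overlap between libraries. The TBGR C-myc D/D Cd4 libraries had 50.2 and 40.7 CPM and then 206 and 259 CPM (log2 ratio 2.39, interval 1.87 to 2.99). In CD122+T-bet- cells these were above the 4 fl/fl libraries, at a log2 ratio of 0.75 (0.39 to 1.12), under 2-fold.

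*Cbfb*, the gene of the common Runx partner, was highest in T-bet int cells of the TBGR mouse. It had 145 and 131 CPM in CD122-, 226 and 215 CPM in CD122+T-bet-, 273 and 299 CPM in T-bet int and 163 and 158 CPM in T-bet high cells. Neighbouring populations did not overlap, for which no share over all genes was counted, and each step was less than 2-fold. T-bet high cells were lower than T-bet int cells by a log2 ratio of -0.82 (-1.14 to -0.51), while *Runx3* was higher. In the fl/fl mouse *Cbfb* had 107, 55.8, 120.1 and 54.9 CPM in CD122- and 217, 285, 217 and 169.7 CPM in CD122+T-bet- cells (log2 ratio 1.41, interval 1.01 to 1.84, and 0.87 relative to the median), higher in 4 of 4 libraries. It was lower in T-bet high than in T-bet int cells in 4 of 4 libraries of that mouse, with a log2 ratio of -0.37 (-0.71 to -0.03), beside a median of -0.18 over all genes compared. D/D Cd4 libraries had 154 and 122 CPM in CD122- and 121 and 177 CPM in CD122+T-bet- cells, which overlap. There, leaving out cells with a double positive marker moved the log2 ratio from 0.18 to 1.21, with which *Cbfb* was called as well.

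*Runx1*, the Runx gene of immature thymocytes, was lower in the T-bet+ populations. TBGR libraries had 107 and 86.6 CPM in CD122-, 92.9 and 59.1 CPM in CD122+T-bet-, 40.9 and 64.8 CPM in T-bet int and 50.9 and 34.3 CPM in T-bet high cells. Neighbouring populations overlapped, and no step reached 2-fold, whereas both CD122- libraries were above all 4 libraries of cells with T-bet. The fl/fl libraries had 82.4, 32.6, 80.1 and 54.9 CPM in CD122- and 73.8, 53.4, 99.2 and 0 CPM in CD122+T-bet- cells, and 18.7 to 31.6 CPM in T-bet int and 25.0 to 45.3 CPM in T-bet high cells. The library at 0 was the smallest, with 22 cells and 94268 transcripts, where 3 transcripts would be 31.8 CPM. D/D Cd4 libraries had 117 and 103 CPM in CD122- cells, above the 4 fl/fl libraries by a log2 ratio of 0.78 (0.26 to 1.32), under 2-fold, and 50.8 and 99.6 CPM in CD122+T-bet- cells. The median over all genes compared between these genotypes was 0.45 in CD122- cells.

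*Runx2*, which is best known from bone, had 117 transcripts over all passing cells. TBGR libraries had 40.3 and 30.0 CPM in T-bet high cells, above the 4.55 and 4.74 CPM of T-bet int cells, with a log2 ratio of 2.90 (1.68 to 4.56) from 6 and 26 transcripts. CD122- and CD122+T-bet- cells had 10.3 and 18.1 CPM and 16.8 and 8.65 CPM. For fl/fl, 1 transcript was found in T-bet int and 14 in T-bet high cells, the latter all in 2 of 4 libraries (45.1 and 27.5 CPM, with 0 in the other two). Levels in the T-bet- populations of the D/D Cd4 mouse were 9.96 to 20.1 CPM. No ratio of *Runx2* reached the minimum of 100 transcripts.

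**Figure D5:**
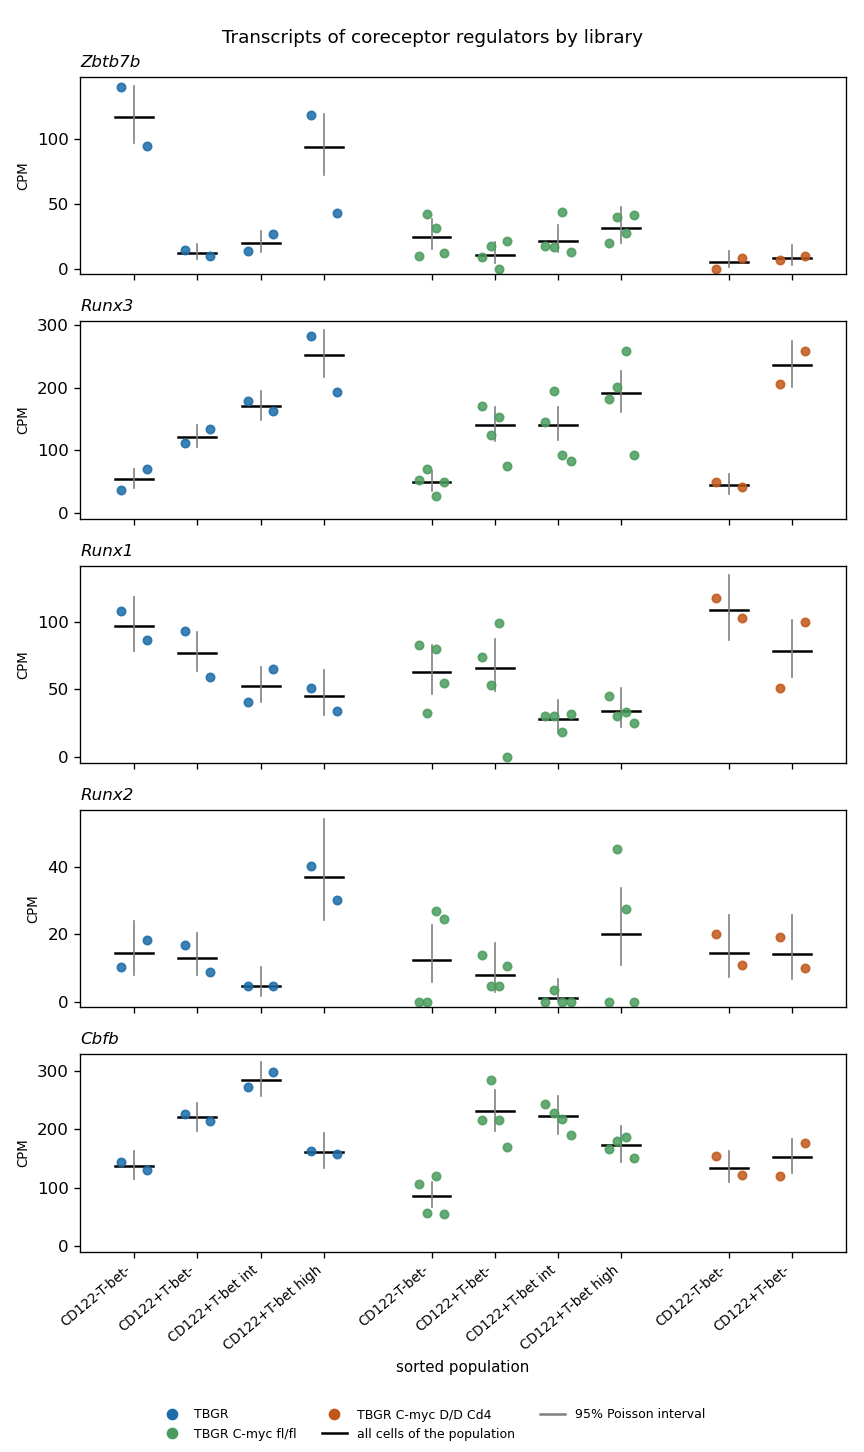
Levels of *Zbtb7b*, *Runx3*, *Runx1*, *Runx2* and *Cbfb* (y axes, CPM) in each sorted population (x axis) of the 3 genotypes, with libraries as points, the sum over libraries as black bars and its 95% Poisson interval as grey lines. *Runx3* of CD122- cells lies at 26.7 to 70.5 CPM in all 3 genotypes, and *Zbtb7b* of TBGR is high in the CD122- and T-bet high populations.

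Within single cells, *Zbtb7b* and *Cd4* were found together more often than under independence in fl/fl CD122- and TBGR CD122+T-bet- cells, also after thinning. In the fl/fl CD122- cells, 12 of 16 *Zbtb7b* cells also had *Cd4*, where independence would give 5.47, and the *Cd4* level was 294 CPM (194 to 428) in cells with and 71.0 CPM (52.9 to 93.4) in cells without *Zbtb7b*. Median depth was 5305.5 and 5951 transcripts in these cells, so those with *Zbtb7b* were not the deeper ones, and thinning to 2000 transcripts gave 3.49 cells with both, with 1.35 under independence. In TBGR CD122+T-bet- cells 7 of 13 had both, with 3.49 under independence, and *Cd4* stood at 169 CPM (103 to 261) against 50.4 CPM (39.1 to 63.8). Median depth there was 7622 and 6998 transcripts, and thinning gave 2.14 cells with both, with 0.50 under independence. In TBGR CD122- cells 60 of 61 *Zbtb7b* cells had *Cd4*, with 57.5 under independence, and the *Cd4* levels were 636 and 554 CPM. In T-bet high cells, where *Zbtb7b* was found in 50 cells, 8 of these had *Cd4*, with 5.10 under independence (1.44 and 0.998 after thinning). The other 6 populations had 0 to 2 cells with both. Of these, D/D Cd4 CD122+T-bet- cells had none, with 0.146 under independence, and after thinning TBGR T-bet int, fl/fl CD122+T-bet- and fl/fl T-bet high cells lay below independence (0.170 and 0.190, 0.047 and 0.090, and 0.022 and 0.047).

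*Zbtb7b* and *Runx3*, which oppose each other in conventional thymocytes, showed different relations by population. Of TBGR CD122- cells, 6 had both, where independence would give 12.3, and the *Runx3* level was 21.1 CPM (9.11 to 41.6) in the 61 cells with and 74.8 CPM (54.6 to 100.1) in the 113 cells without *Zbtb7b*. In T-bet high cells 34 had both, with 30.3 under independence, and the *Runx3* levels were 248 CPM (192.4 to 315) and 255 CPM (209.9 to 307). The fl/fl CD122- cells had 1 with both, with 3.07 under independence. *Runx1* and *Runx3* were found together in 16 of 174 TBGR CD122- cells, with 13.1 under independence, and in 32 of 186 CD122+T-bet- cells, with 29.8. *Cd4* and a *Cd8* chain were found together in 39 TBGR CD122- cells, with 39.6 under independence, in 11 CD122+T-bet- cells, with 9.14, and in no T-bet high cell, with 1.22.

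Other genes of the pathway were taken from lists of 24 genes around the coreceptor loci, 11 of coreceptor signalling, 5 of the CD4 and 7 of the CD8 lineage. From CD122- to CD122+T-bet- cells, *Bcl11b* and *Satb1*, transcription factors of thymocyte development, were called lower in all 3 genotypes. Of all genes compared, 9.07% were higher and 2.37% lower for TBGR, 5.93% and 0.678% for fl/fl and 12.6% and 6.74% for D/D Cd4. For TBGR they were the only network genes called of 19 compared (log2 ratios -1.75 and -2.67), for fl/fl the only ones of 15 (-2.03 and -1.72), and for D/D Cd4 (-2.27 and -1.90) *Gata3* was lower and *Ikzf3* and *Socs1* were higher as well, of 19. Of the signalling list in TBGR cells, *Cd247*, the ζ chain of the T cell receptor complex, and the inhibitory receptors *Cd5* and *Cd6* were lower (-1.14, -1.44 and -1.61) among 11. For D/D Cd4, *Zap70* and *B2m* were higher and *Lat* and *Themis* lower among 11, and for fl/fl none of 9 was called. Of the CD8 lineage list, *Nkg7* and *Ctsw*, found in cytotoxic granules, were higher in TBGR (2.82 and 1.91, 2 compared), and *Nkg7*, *Ctsw* and the chemokine gene *Xcl1* in D/D Cd4 (3 compared), with none of 1 called for fl/fl. No CD4 lineage gene was called in any of the 9 comparisons, in which at most 2 of 5 could be compared. From CD122- to CD122+T-bet- cells, those compared had a median log2 ratio of 1.25 for TBGR (2 genes), 2.43 for fl/fl (1) and 0.82 for D/D Cd4 (1). In the T-bet steps it was -0.03 and 0.02 for TBGR and 0.47 and -0.94 for fl/fl, from 1 gene each. For D/D Cd4 over fl/fl it was -1.70 in CD122+T-bet- cells (1 gene), and none could be compared in CD122- cells.

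Along the T-bet steps of the TBGR mouse, 3 of 21 network genes were called from CD122+T-bet- to T-bet int cells, *Tle4* higher (1.06) and *Myb* and *Bcl11b* lower (-1.2 and -1.01), together with *Cd6* of the signalling list (-1.05 of 11 compared), where 2.07% of all genes were higher and 2.7% lower. *Nkg7*, *Ccl5* and *Xcl1* of the CD8 lineage list were higher there, of 5 compared. From T-bet int to T-bet high cells, *Tcf7*, *Tox* and *Lef1*, transcription factors of T cell development, were lower (-3.02, -1.99 and -1.41), and *Bcl11b*, *Socs1* and *Il7r* were higher (1.21, 1.96 and 1.89), of 18 compared, where 5.65% of all genes were higher and 9.05% lower. *Lat* and *Cd6* of 10 signalling genes and *Itgae* and *Xcl1* of 5 CD8 lineage genes were higher. In the fl/fl mouse *Tcf7*, *Tox* and *Lef1* were likewise called lower in T-bet high cells (-1.62, -1.64 and -1.82), of 14, and no network gene was called higher, where 1.87% of all genes were higher and 1.78% lower. Its *Itgae*, *Nkg7* and *Ccl5* were higher there, of 5, and from CD122+T-bet- to T-bet int cells *Nkg7* alone was called, of 3, where 0.317% of all genes were higher and 0.0907% lower.

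Between the D/D Cd4 and the fl/fl mouse, 6 of 16 network genes were called higher in CD122- cells, where 12.4% of all genes were higher and 0.39% lower and the median of all genes was 0.45. They were *Bcl11b* (1.51), *Smarca4* (1.31), *Gata3* (1.23), *Tox* (1.2), *Patz1* (1.18) and *Myb* (1.11), beside *Themis* and *Cd6* of the signalling list. Double positive markers were also higher in this population (990 and 1119 CPM against 172 to 732 CPM), and the part of those cells in these ratios was not tested. In CD122+T-bet- cells *Gata3*, *Tox*, *Myb*, *Bcl11b*, *Ikzf3* and *Ets1* were higher (1.13 to 1.6) and *Dnmt1* was lower (-1.28), of 18, with *Cd3e*, *Ptprc* and *B2m* of 10 signalling genes and *Nkg7* and *Ctsw* of 3 CD8 lineage genes higher, where 12.7% of all genes were higher and 8.66% lower. The 2 genotypes contribute the same libraries to these comparisons as to those between populations.

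Over the 28 combinations of a library and a population, the genes most like each member were found by Pearson correlation of log2(CPM + 10) among 5870 genes with at least 200 transcripts, as a description over values that share mice, libraries and depth. For *Cd4* they were *Itm2a* (0.86), 5830444F18Rik (0.85) and *Ckb* (0.84), and for *Cd8b1* *Ephb6*, the chemokine receptor gene *Ccr9* and *Bcl11b* (0.78 each). *Cd8a* had *Aftph* (0.78), *Smad4* (0.77) and *Ufl1* (0.76). *Zbtb7b* had *Slfn1* (0.75), *Kbtbd11* (0.73) and *Maml2* (0.66), *Runx1* had *Cd5* (0.79), *Hnrnph1* and *Chd9* (0.78 each), and *Runx3* had *Arap3*, *Ctsw* and *Cst7* (0.88 each). Among the members, *Cd4* was closer to *Cd8b1* (0.69) than to *Cd8a* (0.01), and *Runx3* was negatively related to *Cd4* (-0.56) and *Cd8b1* (-0.55) and positively to *Cd8a* (0.41).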

How the data were processed

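The deposited tables hold expected counts per gene and cell: the authors aligned CEL-Seq2 reads with BWA (0.6.2-r126, after bcl2fastq 2.17.1.14, per the labels) to GENCODE VM9 transcripts and turned the UMIs of each gene into estimated transcript counts. All nonzero values equalled a whole number of UMIs corrected for repeated draws from 4096 possible UMIs, within a relative tolerance of 1e-05. Such counts were rounded, mitochondrial and ERCC rows were left out, cells with a named population and at least 2000 transcripts were kept, and transcripts were summed by library and population (CPM). Ratios had 0.5 transcripts added to each sum, with exact conditional binomial intervals of 95%. Since no label ties libraries to separate mice, no count model was fitted, and the spread between libraries may be technical. Calls needed 2-fold, libraries without overlap and 100 transcripts. The script was tested on simulated data.

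The members, the gene lists and the comparisons were chosen with earlier results of these data known. Named genes were the 8 members, the 3 genes most correlated with each of 6 members, and the list genes called. Alternatives varied the cell minimum (1000, 3000), rounding, cell weights, thinning, the total, centring, empty barcodes, the added transcripts (2), the fold (1.5) and the libraries. No column of per-sample values was left unused. Python 3.11.15, numpy 2.4.6, pandas 2.3.3, scipy 1.17.1 and matplotlib 3.10.9 were used.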

Additional observations from a re-analysis of the deposited data

Results flagged for a closer look

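Among 32 groups of 4 libraries, 4 had a library far from the other three, all of them in fl/fl T-bet int cells, where chance flags about 1 in 20 groups. *Cd8b1* had 6.22 CPM in 1 library and 0 in the others. *Zbtb7b* had 43.5 CPM in 1 library against 12.7 to 17.2 CPM. *Runx1* had 18.7 CPM in 1 library against 30.0 to 31.6 CPM. *Runx2* had 3.35 CPM in 1 library and 0 in the others. The *Cd8b1* and *Runx2* values are 1 transcript each, and a group with a single transcript always meets this criterion, so that rate does not apply to them.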

How the results depend on the processing

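None of the 9 called ratios reversed under 144 alternatives, and 60 of 1216 alternatives of any member's ratio had another sign, in 22 of 72 ratios. A call needs libraries without overlap, so leaving out a library could not reverse it. The absence of reversals therefore says little about stability. The number of members called became 1 (*Cd8a*) for T-bet int over CD122+T-bet- cells of TBGR, and 2 (*Runx3* and *Cbfb*) for CD122+T-bet- over CD122- cells of D/D Cd4, without cells that had a double positive marker, an alternative that, like leaving out cells with *Trdc*, was chosen after seeing the data. At 1.5-fold it became 2 for T-bet high over T-bet int cells of TBGR and, for D/D Cd4 over fl/fl, 2 in CD122- and 1 in CD122+T-bet- cells. For CD122+T-bet- over CD122- cells of fl/fl it was 1 with cells weighted equally, 1 with cells thinned and 0 with ratios centred on the median gene, and for D/D Cd4 over fl/fl in CD122- cells 1 with cells thinned. Apart from the alternatives' own construction, the cause was not tested.

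With 1 library left out, the counts were 1 to 3, 1 to 2 and 0 to 1 in the 3 TBGR comparisons, 1 to 2, 0 to 0 and 0 to 0 for fl/fl, 0 to 1 for D/D Cd4 and 0 to 0 for both comparisons of genotypes. They were 1 without the first TBGR CD122- library, 1 without either TBGR CD122+T-bet- or the second T-bet int library, 0 without either T-bet int library for the last step, 1 without the first fl/fl library and 0 without the second D/D Cd4 CD122+T-bet- library.

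The *Cd8a* share of TBGR CD122- cells was 40.6% with cells thinned. That of TBGR T-bet int cells was 89.6% without double positive marker cells, 92.1% without *Trdc* cells, 95% thinned and 92.6% with empty barcodes subtracted, and that of D/D Cd4 CD122- cells was 50.0% without double positive marker cells. With 1 library left out it was 30.0 to 35.3%, 47.4 to 62.5%, 90.5 to 91.7% and 66.7 to 93.8% along the TBGR populations, 20 to 35.7%, 37.5 to 66.7%, 91.7 to 100% and 63.6 to 83.3% for fl/fl, and 26.8 to 45.8% and 82.4 to 88.0% for D/D Cd4. No paired test was run, since no result here comes from a test, and the fl/fl calls did not use the pairing of populations within a library. As a description, differences within the fl/fl libraries that held both populations of a comparison are given in the report. Depth limits the members whose ratios rest on fewer than 100 transcripts: *Cd8b1* and *Runx2* in all 9 comparisons, *Zbtb7b* in 8, *Cd8a* in 7 and *Cd4* in 6, with *Cd8a* in all 6 and *Cd4* in 5 of 6 outside TBGR.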
